A study of Homo sapiens with 8 samples.

Results

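The genes of the glucose and monocarboxylate carriers were examined in hCMEC/D3. This immortalised endothelial line from small vessels of the human brain serves as a model of the blood-brain barrier in culture. The members were taken by name: every SLC2A, SLC5A and SLC16A gene of the deposited table, together with BSG and EMB, which encode the accessory proteins of the SLC16 carriers. This gave 42 of 23346 listed genes, made up of 14 SLC2, 12 SLC5 and 14 SLC16 genes and 2 accessory genes. Polyadenylated RNA of 8 replicates of the line was sequenced. All 8 were untreated as far as the labels say and formed 1 group, so no condition was compared. The line is a single immortalised line in monoculture, and the labels did not say whether the replicates were separate cultures, so p-values measure only the spread between these libraries, which may be technical.

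The SLC2 genes encode the GLUT carriers, which move hexoses and polyols down their gradient. The SLC5 genes encode carriers that couple the uptake of sugars, inositol, vitamins or anions to sodium. The SLC16 genes encode the MCT carriers, of which the best known move lactate, pyruvate and ketone bodies together with protons. Brain endothelium is known for high GLUT1 (SLC2A1), through which glucose enters the brain, and for MCT1 (SLC16A1), through which lactate and ketone bodies pass. MCT1 and MCT4 need basigin (BSG) to reach the cell surface, whereas MCT2 prefers embigin (EMB).

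Total counts ranged from 69388544 to 90205244 per library. Levels of 1 gene across libraries are given as CPM, counts scaled to a common library size, with library sizes adjusted by the trimmed mean of M-values (TMM). Levels of different genes are compared as RPKM, which is the CPM divided by the length in kilobases of the canonical transcript. A gene was called detected where each of the 8 libraries had 1 CPM or more. All 10 endothelial marker genes were detected, with a summed level of 2265 to 4312 CPM. Of 8 genes each, 5 mural, 2 astrocyte, 1 neuron and 3 epithelial markers were detected. Their summed levels were 47.3 to 74.2 CPM for mural, 209 to 449 CPM for astrocyte, 3.78 to 8.84 CPM for neuron and 318 to 511 CPM for epithelial genes. The astrocyte sum was mostly GJA1 (353 ± 94.2 CPM) and the epithelial sum mostly KRT18 (358 ± 74.0 CPM), while GFAP, AQP4, EPCAM and CDH1 were not detected. Replicates 2, 7 and 8 stood apart from the others in how levels changed with transcript length. The slope of a library's deviations from the gene means per doubling of length was 0.09 to 0.16 (log2) in replicates 1, 3, 4, 5 and 6, and -0.23, -0.11 and -0.35 in replicates 2, 7 and 8.

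Of the 42 members, 19 were detected, against 51.3% of all listed genes. These were 7 of 14 SLC2 genes, 3 of 12 SLC5 genes, 8 of 14 SLC16 genes and 1 of the 2 accessory genes. Of the 23 members that were not detected, 18 had a mean under 0.5 CPM, and SLC5A9 and SLC5A12 had no count in any library. With no count, the upper limit on the level, set at 3 read pairs, was 0.0665 to 0.0880 CPM depending on the library. Leaving out any 1 library, or replicates 2 and 8 together, left 19 members detected.

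Upstream sequence was compared between the members that were and were not detected. RefSeq promoter sequences (GRCh38.p14) were at hand for 31 members, and the 250 bases before the start were used. The 14 detected members had a median of 20.5 CpG dinucleotides there (range 2 to 46) and the 17 others had 8 (range 1 to 28). At least 10 CpG were found in 9 of the 14 and in 8 of the 17. Among all listed genes with such a sequence, 86.6% of the detected and 40.2% of the other genes had at least 10. The difference between the members was not tested, and there were exceptions on both sides. The following 6 sequences show both the usual cases and the exceptions, with each CpG in capitals: SLC2A1 and SLC5A3 as detected members with many, SLC2A12 as a detected member with few, SLC2A2 and SLC16A7 as undetected members with few, and SLC16A10 as an undetected member with many.
SLC2A1 (chr1:42958869-42959118, minus strand, 24 CpG): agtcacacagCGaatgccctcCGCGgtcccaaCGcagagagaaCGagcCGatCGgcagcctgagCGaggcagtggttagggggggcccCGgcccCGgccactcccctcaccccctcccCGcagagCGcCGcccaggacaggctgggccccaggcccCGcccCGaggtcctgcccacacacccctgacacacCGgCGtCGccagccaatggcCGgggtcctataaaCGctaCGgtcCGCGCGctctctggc
SLC5A3 (chr21:34073328-34073577, plus strand, 46 CpG): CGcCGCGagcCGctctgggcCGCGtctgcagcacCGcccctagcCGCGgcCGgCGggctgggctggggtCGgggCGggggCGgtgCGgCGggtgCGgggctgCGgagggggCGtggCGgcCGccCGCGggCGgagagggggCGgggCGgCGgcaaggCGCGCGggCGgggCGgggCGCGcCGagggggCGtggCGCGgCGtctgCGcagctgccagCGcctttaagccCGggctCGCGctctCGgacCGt
SLC2A12 (chr6:134052625-134052874, minus strand, 4 CpG): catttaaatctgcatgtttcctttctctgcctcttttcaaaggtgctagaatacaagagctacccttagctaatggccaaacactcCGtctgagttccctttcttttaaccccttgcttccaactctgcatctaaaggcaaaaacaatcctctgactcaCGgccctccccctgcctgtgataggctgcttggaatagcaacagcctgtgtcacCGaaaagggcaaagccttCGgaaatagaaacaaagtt
SLC2A2 (chr3:171026721-171026970, minus strand, 2 CpG): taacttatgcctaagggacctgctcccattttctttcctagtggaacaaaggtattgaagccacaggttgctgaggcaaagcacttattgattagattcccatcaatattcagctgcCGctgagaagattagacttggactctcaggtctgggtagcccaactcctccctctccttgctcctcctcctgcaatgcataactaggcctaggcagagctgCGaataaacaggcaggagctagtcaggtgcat
SLC16A7 (chr12:59689120-59689369, plus strand, 1 CpG): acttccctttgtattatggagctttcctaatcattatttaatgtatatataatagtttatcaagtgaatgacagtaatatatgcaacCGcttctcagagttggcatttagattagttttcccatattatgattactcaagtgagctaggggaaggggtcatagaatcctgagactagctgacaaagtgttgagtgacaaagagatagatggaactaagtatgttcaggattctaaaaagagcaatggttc
SLC16A10 (chr6:111087253-111087502, plus strand, 28 CpG): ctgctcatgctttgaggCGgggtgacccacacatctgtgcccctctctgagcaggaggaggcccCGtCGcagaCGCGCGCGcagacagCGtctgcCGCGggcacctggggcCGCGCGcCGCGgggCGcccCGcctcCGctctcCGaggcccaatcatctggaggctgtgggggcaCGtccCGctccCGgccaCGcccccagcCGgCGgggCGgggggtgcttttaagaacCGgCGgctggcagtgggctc
CpG-rich sequence upstream of a start is typical of genes that are read in many tissues, and these sequences describe the reference genome, not the methylation of these cells.

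The glucose carrier of the barrier led the SLC2 family. SLC2A1 (GRCh37 chromosome 1, 43391046 to 43424847, minus strand, 10 exons) had 139, 165, 118, 129.9, 128.3, 124, 112 and 150.4 CPM in replicates 1 to 8. Replicates 2 and 8 were highest and replicate 7 lowest, within a 1.47-fold range. The mean of 39.4 ± 5.18 RPKM (SD, n = 8) lay above 82.3% of all detected genes with a length. SLC2A1 made up 53.5% ± 2.74 of the summed RPKM of the family (SD, n = 8), from 49.2% in replicate 7 to 57.3% in replicate 2.

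The other class I carriers were far lower. SLC2A3 (chromosome 12, 8071824 to 8088892), the high-affinity carrier of neurons, had 7.502 to 9.98 CPM and 2.39 ± 0.258 RPKM. Within libraries the log2 ratio of SLC2A1 to SLC2A3, on RPKM + 0.1, was 3.98 ± 0.18 (SD), or 15.8-fold, and SLC2A1 was higher in 8 of 8 libraries. This ratio had an exact two-sided sign-flip permutation p of 0.00781 (n = 8), the smallest that 8 libraries can give, and an adjusted p of 0.00833 over the 16 pairs compared. SLC2A4, the insulin-responsive carrier of muscle and fat, had 0.816 ± 0.205 CPM and exceeded 1 CPM in replicate 4 only. SLC2A1 was higher in 8 of 8 libraries, by a log2 ratio of 6.86 ± 0.39 (exact sign-flip permutation p = 0.00781, adjusted p = 0.00833, n = 8). SLC2A4 lay near the pseudocount, and the ratio was 5.01 with a pseudocount of 1 and 6.06 with the length of all annotated exons joined. SLC2A2, the carrier of liver and pancreatic beta cells, had no count in 6 libraries and 2 counts in each of the other two.

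SLC2A14 is a close copy of SLC2A3, so its count of reads is uncertain. The coding sequences of the canonical transcripts agreed at 1440 of 1488 aligned bases (96.8%), with the longest identical run at 137 bases, while SLC2A3 and SLC2A1 agreed at 69.2%. Only the coding sequences were compared, not the untranslated parts. Within the coding sequence, only reads over differing bases tell the genes apart. The 90 coding bases with the most differences are shown, with the 8 differing bases in capitals.
SLC2A3 (coding bases 522 to 611): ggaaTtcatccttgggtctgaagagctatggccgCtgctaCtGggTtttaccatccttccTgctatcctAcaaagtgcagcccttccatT
SLC2A14 (coding bases 525 to 614): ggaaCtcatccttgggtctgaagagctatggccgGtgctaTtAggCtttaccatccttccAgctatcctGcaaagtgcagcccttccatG
SLC2A14 had 0.0930 ± 0.0606 CPM, with at most 12 counts in a library. How the authors' counting treated reads that fit both genes is not given in the sources used here, and its effect on the level of SLC2A3 was not tested.

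Carriers that reside mainly inside the cell were the next highest of the family. SLC2A6 (chromosome 9, 136336216 to 136344276), a lysosomal member, had 33.5 to 49.6 CPM and 15.5 ± 2.20 RPKM. SLC2A8 (chromosome 9, 130159465 to 130170165), an intracellular hexose and disaccharide carrier, had 8.26 ± 2.56 RPKM. Replicates 1 to 8 gave 13.1, 22.2, 13.97, 15.4, 15.3, 13.2, 20.1 and 28.6 CPM, so replicates 2, 7 and 8 lay above all others without overlap. Of all detected genes, 68.4% were related to the length slope that sets these libraries apart. How many of all genes separate them without overlap was not counted. SLC2A6 exceeded SLC2A8 in 8 of 8 libraries, by a log2 ratio of 0.94 ± 0.23 (exact sign-flip permutation p = 0.00781, adjusted p = 0.00833, n = 8).

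Among the remaining SLC2 members, SLC2A12 (chromosome 6, 134308719 to 134373789, 5 exons), which carries glucose and urate, stood out. It had 42.1, 31.3, 27.3, 35.2, 21.9, 41.5, 18.1 and 30.5 CPM in replicates 1 to 8. The highest values were in replicates 1 and 6 and the lowest in replicates 5 and 7, a 2.32-fold range. SLC2A12 held 7.60% ± 2.16 of the family's RPKM, more than SLC2A3 (3.27% ± 0.449). SLC2A10, its class III relative, was at 0.116 ± 0.0617 CPM, with 2 counts in the lowest library. SLC2A13, the proton-coupled inositol carrier, had 1.56 to 5.90 CPM and SLC2A11 had 2.48 to 3.86 CPM. SLC2A9, a urate carrier, had 1.095 ± 0.214 CPM and fell under 1 CPM in 3 libraries. Its listed span (chromosome 4, 10020599 to 10041872) covers only part of the annotated gene, so reads from the rest may not be in its count. The fructose carrier SLC2A5 had at most 4 counts in a library and SLC2A7 at most 6.

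**Figure D1:**
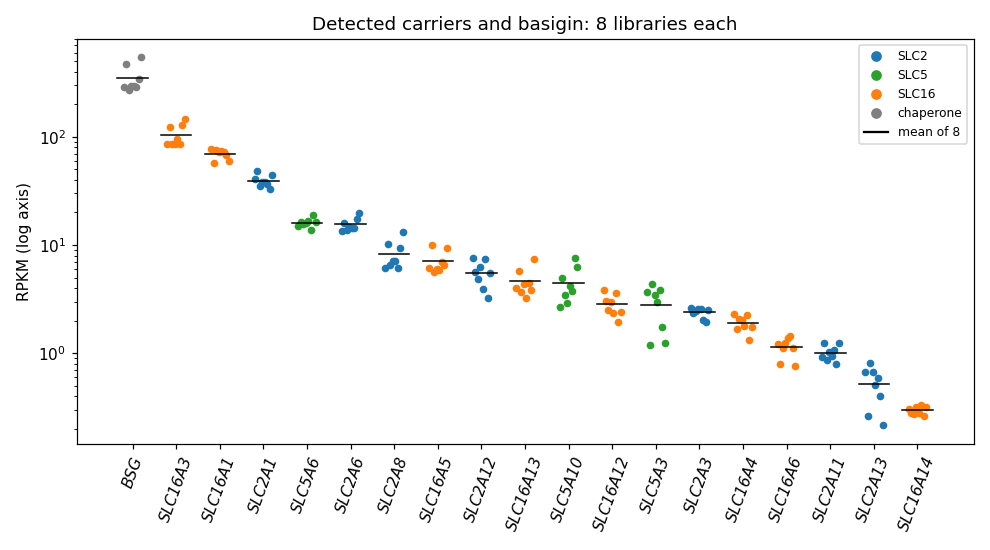
RPKM (log axis) of the 19 detected members in order of their mean. Each point is 1 of 8 libraries, black bars are means and colours mark the families. BSG, SLC16A3, SLC16A1 and SLC2A1 form the top of the order and SLC16A14 the bottom at 0.297 RPKM.

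On CPM and on RPKM with canonical lengths, the lactate carriers had the highest levels of the carriers. SLC16A3 (MCT4; chromosome 17, 80186282 to 80197375, plus strand, 5 exons), known for lactate export from glycolytic cells, had 223, 319, 225, 223, 247, 221, 337 and 383 CPM in replicates 1 to 8. Replicates 2, 7 and 8 lay above the other 5 without overlap. SLC16A1 (MCT1; chromosome 1, 113454470 to 113498975, minus strand, 5 exons) had 289.8, 214, 283, 269.9, 278, 269.9, 254 and 224 CPM. Here replicates 2, 7 and 8 were the lowest, also without overlap, although the range was only 1.36-fold. The share of all detected genes that separate these libraries was not counted, and 68.4% were related to the length slope. On the authors' normalised values SLC16A3 was lowest in replicates 2 (9.17) and 8 (9.29) and highest in replicate 7 (9.59). SLC16A1 was highest on these values in replicates 8 (8.43) and 7 (8.35).

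The order of these carriers depended on the length assumed. With canonical lengths, SLC16A3 had 104.8 ± 24.7 RPKM and SLC16A1 had 69.4 ± 7.38 RPKM. The log2 ratio of SLC16A1 to SLC16A3 was -0.57 ± 0.47 and SLC16A3 was higher in 8 of 8 libraries (exact sign-flip permutation p = 0.00781, adjusted p = 0.00833, n = 8). The ratio was -0.04 with no length (adjusted p = 0.813 in the exact permutation test). With the length of all annotated exons joined it turned to 0.50 (adjusted p = 0.050, exact permutation). The joined exons of SLC16A3 span 9236 bases against 2599 for the canonical transcript. On the authors' normalised values, which are adjusted for length, the ratio kept its sign and passed the test. SLC16A1 held 36.6% ± 6.80 of the RPKM of the family and SLC16A3 held 53.8% ± 6.92 (SD, n = 8), and SLC16A5, the next, 3.65%.

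Per canonical length, SLC16A1 also exceeded the glucose carrier. The log2 ratio of SLC2A1 to SLC16A1 was -0.82 ± 0.32, ranging from -1.11 in replicate 3 to -0.22 in replicate 2 (exact sign-flip permutation p = 0.00781, adjusted p = 0.00833, n = 8). SLC16A7 (MCT2), the high-affinity carrier of neurons, had no count in 5 libraries and at most 4 in the others, so no fold to SLC16A1 is given. SLC16A8 (MCT3), which is known from the retinal pigment epithelium, had 0.246 ± 0.0938 CPM.

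Of the accessory proteins, BSG was detected and EMB was not. BSG (chromosome 19, 571325 to 583493, plus strand, 9 exons) had 561, 915, 529, 571, 575, 559, 672 and 1055 CPM in replicates 1 to 8. It was highest in replicates 8 and 2, followed by replicate 7. Its mean of 349 ± 101 RPKM lay above 98.7% of detected genes. The log2 ratio of BSG to SLC16A1 was 2.29 ± 0.53, or 4.90-fold, with BSG higher in 8 of 8 libraries (exact sign-flip permutation p = 0.00781, adjusted p = 0.00833, n = 8), and 1.35 with no length. EMB had 8 counts over all libraries, and none in 5 of them. With EMB at or under the level of 3 read pairs, no fold is given.

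Genes of thyroid hormone transport and action were mostly low. SLC16A10, the aromatic amino acid and thyroid hormone carrier, had 0.338 ± 0.0636 CPM. SLCO1C1, a thyroid hormone carrier of brain capillaries, had 0.0241 CPM. Of the 9 genes in the thyroid hormone list only SLC7A5 (209 ± 67.1 CPM), a large amino acid carrier that also takes thyroid hormone, and the receptor THRA (38.2 ± 8.09 CPM) were detected. DIO2 and DIO3, which activate and inactivate the hormone, had 0.545 and 0.128 CPM.

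The other SLC16 members lay between these extremes. SLC16A5, SLC16A13 and SLC16A12 had 7.06 ± 1.65, 4.61 ± 1.37 and 2.83 ± 0.644 RPKM, and SLC16A12 is known as a creatine carrier. SLC16A4, SLC16A6 and SLC16A14 had 1.91, 1.13 and 0.297 RPKM. SLC16A6, a ketone body carrier, lies within the span of ARSG on the opposite strand, with no shared bases in the canonical exons. SLC16A12 had 17.8, 14.1, 11.8, 13.9, 10.99, 16.7, 8.99 and 11.2 CPM in replicates 1 to 8. Like SLC2A12 it was highest on CPM in replicates 1 and 6 and lowest in replicate 7, a likeness noticed after the values were seen and not tested. On the authors' normalised values SLC16A12 was highest in replicates 2 (4.38) and 8 (4.17) and lowest in replicate 3 (3.52). SLC16A11 and SLC16A9 were not detected, with 0.316 and 0.0341 CPM.

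**Figure D2:**
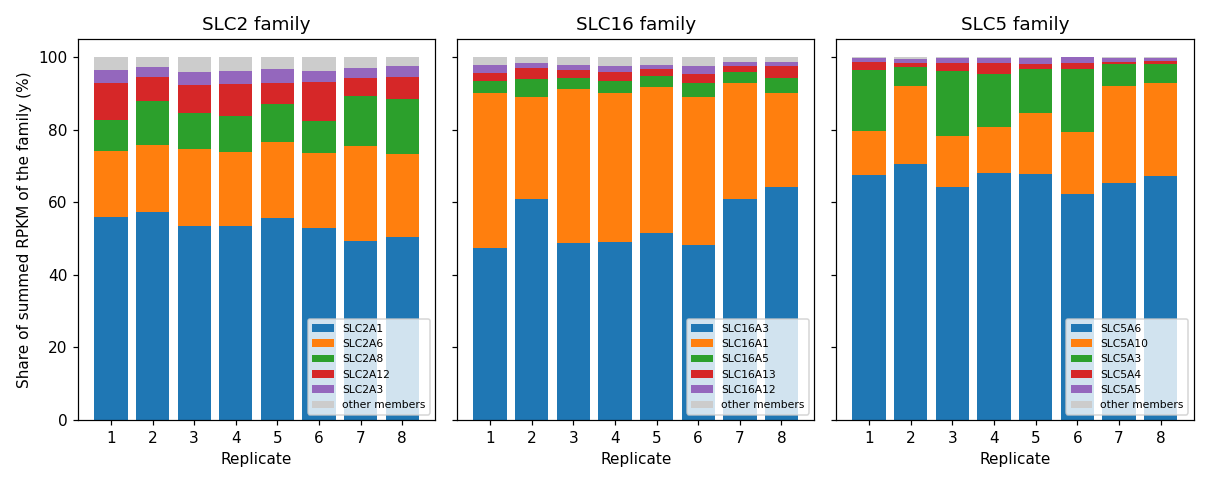
Share of the summed RPKM of each family (percent, stacked bars from 0) held by its 5 highest members in each of 8 libraries, with the other members in grey. SLC2A1 held 49.2% to 57.3% of SLC2, and the share of SLC16A3 was highest in replicates 8, 7 and 2.

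The sodium-coupled glucose carriers of intestine and kidney were at or near 0. SLC5A1, which takes up glucose in the intestine, had at most 10 counts in a library and SLC5A2, its kidney counterpart, at most 12. SLC2A1 was higher than SLC5A1 in 8 of 8 libraries (exact sign-flip permutation p = 0.00781, adjusted p = 0.00833, n = 8), and with SLC5A1 near the level of 3 read pairs no fold is given. SLC5A8 and SLC5A12, which carry lactate with sodium, had 2 counts and 0 counts over all libraries. SLC5A7, the choline carrier of cholinergic neurons, had 4. The glucose sensor SLC5A4 and the iodide carrier SLC5A5 had 0.767 ± 0.382 and 1.11 ± 0.2004 CPM, and SLC5A5 was under 1 CPM in 2 libraries.

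Most of the SLC5 level came from 3 detected genes, 1 of them a sugar carrier. SLC5A6 (chromosome 2, 27422455 to 27435175, 17 exons), the sodium-dependent carrier of biotin and pantothenate, had 43.8 to 60.3 CPM and 16.01 ± 1.48 RPKM, which was 66.6% ± 2.61 of the family. It shares 228 bases of canonical exons with C2orf28 on the opposite strand, which had 60.5 ± 20.2 CPM. The part of C2orf28 in the level of SLC5A6 was not tested. SLC5A6 and SLC2A6 were neighbours in the order of levels and did not differ beyond their spread, with a log2 ratio of 0.05 ± 0.16 (exact sign-flip permutation p = 0.391, adjusted p = 0.502 over 18 neighbours, n = 8). SLC5A10 (chromosome 17, 18855478 to 18924003, 15 exons), a mannose and fructose carrier of the kidney, held 18.4% ± 5.70 of the family. It had 10.5, 19.7, 13.8, 11.6, 16.6, 14.9, 30.4 and 24.8 CPM. It was highest in replicates 7, 8 and 2. It overlaps FAM83G and GRAP on the opposite strand, sharing 393 and 1489 bases of canonical exons. The listed spans of SLC5A10 and GRAP overlap by only 14 bases, so most bases shared with GRAP lie outside the listed span of SLC5A10. Reads from there may not be in the count of SLC5A10, although its canonical length of 3966 bases includes them. Its RPKM and its share of the family may thus be too low. FAM83G was also highest in replicate 7, at 68.4 CPM, and GRAP in replicate 8, at 72.3 CPM. The sources used here do not say whether strand was used in counting, and their part in the level of SLC5A10 was not tested.

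SLC5A3 (chromosome 21, 35445870 to 35478561, plus strand, 2 exons), the sodium-coupled inositol carrier that responds to osmotic stress, had the largest coefficient of variation of the detected members on CPM, at 44.02%. It had 43.0, 13.9, 50.2, 39.6, 34.6, 44.2, 20.1 and 14.5 CPM in replicates 1 to 8. Replicates 2, 8 and 7 lay below the other 5 without overlap, and the highest value was 3.60 times the lowest. How many of all detected genes separate these libraries in this way was not counted. SLC2A13 had a coefficient of 40.7% and a wider range, 3.78-fold. The canonical transcript of SLC5A3, at 11566 bases, is the longest of the detected members. SLC5A3 shares the span and 168 exon bases with MRPS6 on the same strand, which was highest in replicate 2, at 26.7 CPM, where SLC5A3 was lowest. Per length, SLC5A6 exceeded SLC5A3 by a log2 ratio of 2.60 ± 0.80 and SLC2A13 lay below it by -2.18 ± 0.23, each in 8 of 8 libraries (exact sign-flip permutation p = 0.00781, adjusted p = 0.00833, n = 8). The ratio of SLC5A6 to SLC5A3 was 0.81 with no length, 1.73 on the authors' normalised values and 1.81 with joined exons. That of SLC2A13 to SLC5A3 was -3.05 with no length and -1.26 with a pseudocount of 1.

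**Figure D3:**
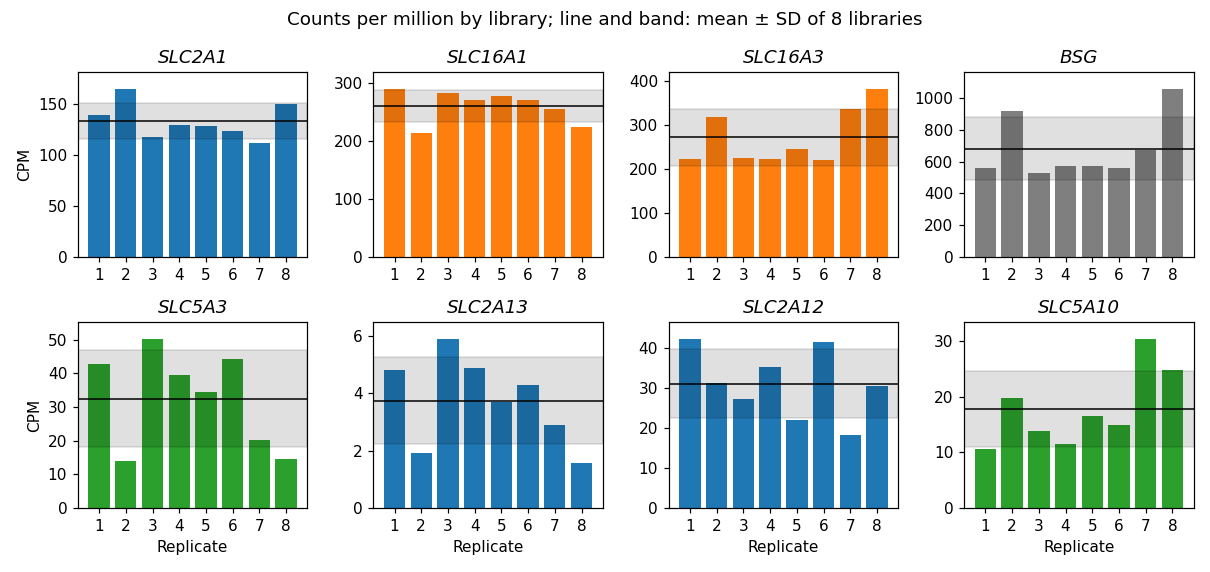
CPM of 8 members in each library (bars from 0), with the mean as a line and the SD as a band. BSG was highest and SLC5A3 and SLC2A13 lowest in replicates 2 and 8, whereas SLC2A12 was lowest in replicate 7.

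Variation beyond that of genes of like abundance was tested with edgeR's goodness-of-fit test over all 11980 detected genes. SLC5A3 was the only member of the 19 that passed, with an edgeR adjusted p of 0.00538, against 4.66% of all genes tested. Next came SLC2A13, at an edgeR adjusted p of 0.0563, and SLC5A10, at 0.295. On CPM, the lowest variation was found in SLC16A14, SLC5A6, SLC16A1 and SLC2A3, with coefficients of variation of 8.20%, 9.24%, 10.6% and 10.8%. The median over the 19 members was 22.7%, and 19.2% over all detected genes. The calls changed when length was taken out. After removal of the trend on length and GC content from each library, SLC5A3 no longer passed (edgeR adjusted p = 0.992). SLC2A12 (edgeR adjusted p = 0.00545) and SLC5A10 (0.0447) then passed, where 6.57% of genes did. Without replicates 2 and 8, SLC2A12, SLC5A10 and SLC5A3 passed, against 2.75% of genes. With DESeq2's fitted trend, SLC5A3, SLC2A13, SLC5A10 and SLC2A12 passed, against 23.5% of genes.

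On the authors' normalised log2 values members kept, lost or gained spread. SLC5A3 ranged from 4.13 to 4.76 (SD 0.20), and BSG from 10.30 to 10.50 (SD 0.07). SLC2A12 ranged from 4.30 in replicate 5 to 5.50 in replicate 8 (SD 0.47), and SLC5A10 from 4.72 to 5.90 in replicate 7 (SD 0.36). For SLC2A12, replicates 8 and 2 were then highest, which differs from the order on CPM, while replicates 5 and 7 remained lowest. SLC16A14, which varied least on CPM, ranged from 0.27 to 1.45 (SD 0.39). Among the detected members this SD was the largest after that of SLC2A12.

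The members were then set against the length slope of the libraries, with an exact two-sided permutation test over all pairings of levels and slopes, adjusted over all 11980 detected genes. Of the 19 members, 11 were related to it, against 68.4% of all genes, so this is no more than the background. The slope is higher in replicates 1, 3, 4, 5 and 6, with a largest gap between neighbours of 39.2% of its range, so each r rests largely on the contrast with replicates 2, 7 and 8. Those with a positive relation were SLC2A13 (r = 0.98), SLC5A3 (0.97), SLC16A1 (0.93) and SLC16A6 (0.89), against 31.6% of all genes. Those with a negative relation were SLC2A8 (r = -0.98), BSG (-0.98), SLC16A3 (-0.97), SLC2A6 (-0.90), SLC16A5 (-0.87), SLC5A10 (-0.80) and SLC16A13 (-0.79), against 36.8%. The positive members had a median length of 5487 bases and the negative ones 2145, close to 5395 and 2054 bases over all genes so called. BSG had the smallest p (r = -0.98, exact permutation p = 7.44e-05, adjusted p = 0.00165, n = 8). Its Spearman rho was -0.98 (exact permutation p = 3.97e-04, adjusted p = 0.00631). By rho, 7 of the 19 members were related to the slope, against 34.9% of genes.

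Not all of these relations held when the 2 libraries farthest from the median slope, replicates 2 and 8, were left out. The r was then -0.30 for SLC16A5, 0.40 for SLC16A6 and 0.27 for SLC16A13, which rested on those libraries, and between 0.79 and 1.00 in size, with the sign kept, for the other 8. The slope of the remaining libraries was -0.11 in replicate 7 and 0.09 to 0.16 in the others, so each r then rests largely on replicate 7. SLC16A4 reached a like size (r = 0.96). On 8 libraries it was called by rho (0.83, exact permutation adjusted p = 0.0441) but not by r (0.64, exact permutation adjusted p = 0.115). With 6 libraries, the test called 0 of all 11980 genes, and so none of the members. SLC2A1 was not related to the slope (r = -0.57, exact permutation p = 0.142, adjusted p = 0.178; its rho of -0.45 had an exact p of 0.267 and an adjusted p of 0.333), and its r turned to 0.67 without replicates 2 and 8. On the authors' normalised values 3 members were related, against 33.6% of genes: SLC2A6 (r = 0.86), SLC16A1 (-0.84) and SLC16A14 (-0.95). All 3 had the opposite sign on CPM.

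**Figure D4:**
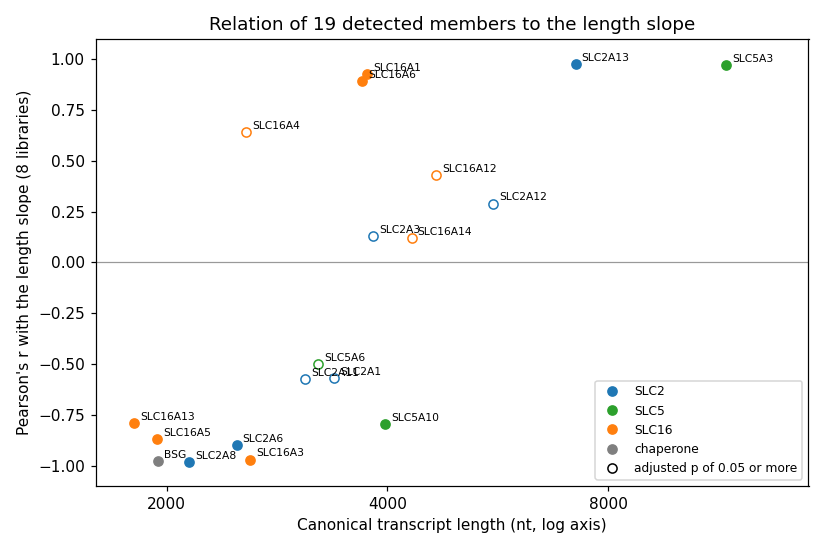
Pearson's r between the log2 CPM of each of the 19 detected members and the length slope over 8 libraries, against canonical transcript length (log axis). Filled points had an adjusted p under 0.05. SLC2A13 and SLC5A3, the longest, lie at the top and BSG, SLC2A8 and SLC16A3, which are shorter, at the bottom.

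The enzymes that handle the carried substrates were described from lists of known pathway genes. In glycolysis, 17 of 20 genes were detected and 0 were above the variation trend by edgeR's test. GAPDH, ENO1 and PKM (listed as PKM2) were the highest at 2255, 1033 and 639.6 RPKM. HK1, the hexokinase of brain and red cells, had 64.4 ± 4.29 RPKM and HK2 1.07 ± 0.242, a log2 ratio of 5.81 ± 0.40 in 8 of 8 libraries (exact sign-flip permutation p = 0.00781, adjusted p = 0.00833, n = 8). This ratio was 4.99 with a pseudocount of 1 and 4.95 with joined exons. HK3 and HKDC1 were not detected. The lactate dehydrogenase genes LDHA and LDHB had 405 ± 37.7 and 364 ± 48.3 RPKM. Their log2 ratio of 0.16 ± 0.19 was positive in 6 of 8 libraries and did not pass the test (exact sign-flip permutation p = 0.0547, adjusted p = 0.0547, n = 8). It passed on the authors' normalised values, at 0.64 (adjusted p = 0.00781), and with no length, at 0.94 (adjusted p = 0.00962), and turned to -0.07 with joined exons.

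Pyruvate entry into mitochondria was represented by all 11 listed genes, led by PDHB (59.5 ± 4.54 RPKM), DLD (28.3 ± 3.17) and MPC2 (28.1 ± 4.56). MPC2 exceeded its partner MPC1 (10.1 ± 1.39 RPKM) in 8 of 8 libraries, with a log2 ratio of MPC1 to MPC2 of -1.46 ± 0.10 (exact sign-flip permutation p = 0.00781, adjusted p = 0.00833, n = 8). It was -2.75 with no length and -2.77 on the authors' normalised values. Ketone body use had 4 of 5 genes detected, with ACAT1 (49.7 RPKM) and OXCT1 (16.05) highest. In the polyol and fructose list AKR1B1, SORD and KHK had 296, 5.69 and 1.59 RPKM. The sodium pump that drives SLC5 carriers had 3 of 7 listed genes detected, among them ATP1B3 (133 RPKM) and ATP1B1 (29.5).

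Among genes that control carrier traffic, 9 of 10 were detected, with GIPC1 (90.1 RPKM), TXNIP (78.4) and PRKAA1 (29.8) highest. TXNIP, a glucose-induced arrestin that promotes uptake of GLUT1 from the cell surface, had 254, 379.7, 167, 201, 144, 175, 132 and 365 CPM in replicates 1 to 8 (edgeR adjusted p = 0.0536). Both TXNIP and SLC2A1 were highest in replicates 2, 8, 1 and 4, in that order, and lowest in replicate 7. This was noticed after the values were seen and was not tested. In the transcription list 5 of 7 genes were detected, led by EPAS1 (294 RPKM), HIF1A (50.6) and MYC (40.1). HIF1A, a subunit of the hypoxia factor that raises SLC2A1 and SLC16A3 in many cells, was the 1 gene of these 8 lists above the variation trend (edgeR adjusted p = 0.00262), where 4.66% of all genes tested were. Of the marker genes, CLDN5 was above it too (edgeR adjusted p = 7.36e-04). HIF1A had 254, 105, 269, 269, 233, 264, 137 and 65.2 CPM in replicates 1 to 8, lowest in replicates 8, 2 and 7. It was thus low where SLC16A3 was high on CPM. On the authors' normalised values SLC16A3 was lowest in replicates 2 (9.17) and 8 (9.29), where HIF1A was lowest too (7.26 and 6.69). In replicate 7 SLC16A3 was highest (9.59) and HIF1A was at 7.33. The length slope relation of HIF1A on CPM was r = 0.996 (exact permutation test, adjusted p = 0.00240, n = 8).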

How the data were processed

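RNA-seq of 8 replicates of hCMEC/D3 was used. The submitters' processing notes name CASAVA 1.9, TopHat2 2.0.6, HTSeq and build hg19. Parameters, annotation and use of strand are not given in the sources used here. Per the file headers, the authors deposited raw counts per gene, and conditional quantile normalised (CQN) values, which adjust for gene length and GC content. The deposited CQN values are read as log2, judged from the values. All 186768 counts were even, with 0 odd, so limits for a count of 0 use read pairs. The titles matched 16 columns to samples and left 0 others.

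CPM values used TMM scaling (edgeR 4.0.16, R 4.3.3). Lengths came from canonical transcripts of GENCODE 44 lifted to GRCh37, and 11591 of 11980 detected genes (96.8%) and all 42 members had one. Table starts were read as 0-based and are printed 1-based. Variation was tested with an intercept-only edgeR model, whose trended dispersion a goodness-of-fit test was run against, with Benjamini-Hochberg adjustment over detected genes and a threshold of 0.05. Ratios used log2(RPKM + 0.1) and 256 sign patterns. The length slope was fitted without the members. DESeq2 1.42.0 served for alternatives. Statistics were tested on simulated data.

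No pair of libraries agreed within counting noise (chi-square per degree of freedom at least 4.79 on halved counts), so none was treated as a repeat of another library. This does not show that they are separate cultures. Total counts of 69388544 to 90205244 make counting error small for all but the lowest genes, and limits for a count of 0 cover counting error only. The members, lists, pairs and tests were chosen with earlier results of these data known. Named genes are all detected members, the 3 highest undetected members of each family, the genes of the 16 pairs and, of each list, the 3 highest and any gene above the trend. Further members are named by their role after their values were seen. Some members, list genes and 1 of the pairs are not reported here.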

Additional observations from a re-analysis of the deposited data

How the results depend on the processing

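No paired analysis was possible because all 8 libraries form 1 group. The number of detected members stayed within 1.5 times of 19 under every alternative run, from 15 at an RPKM of at least 1 to 27 at 10 counts or more, and was 19 to 19 with each replicate left out. The members above the variation trend numbered 1 with each replicate left out, 4 with DESeq2's trend, 2 with the length and GC trend removed and 3 without replicates 2 and 8, the last set chosen after seeing the data. The members related to the length slope numbered 7 by Spearman's rho, 3 on the deposited CQN values and 0 without replicates 2 and 8, where no gene of 11980 was called. Among members that passed on CPM or on the CQN values, the r on the CQN values reversed to -0.84 for SLC16A1, 0.59 for SLC16A3, 0.59 for SLC16A5, -0.13 for SLC16A6, 0.41 for SLC16A13, -0.95 for SLC16A14, 0.86 for SLC2A6 and 0.75 for BSG, and without replicates 2 and 8 to 0.27 for SLC16A13. Of those that passed on neither by r, SLC2A3, SLC2A11, SLC2A12, SLC5A6, SLC16A4 and SLC16A12 also changed sign on the CQN values. Likewise, SLC2A1 (0.67) and SLC2A11 (0.70) changed sign without replicates 2 and 8. These CQN values carry the authors' own length adjustment, and the cause was not tested.

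The log2 ratio of SLC16A1 to SLC16A3 was -0.039 with no length and 0.50 with joined exons, an alternative also added after seeing the data, and -0.63 to -0.46 with each replicate left out. That of LDHA to LDHB was 0.94 with no length, 0.64 on CQN values, -0.070 with joined exons and 0.24 without replicates 2 and 8. It was 0.14 to 0.21 with each replicate left out, and passed without replicate 2 (0.19, adjusted p = 0.0469, exact permutation) and without replicate 8 (0.21, adjusted p = 0.0469, exact permutation). Of the other ratios, 13 kept their sign and their side of the threshold under each alternative run. The share of SLC2A1 was 46.2% with joined exons and 53.0% to 54.1% with each replicate left out. That of SLC16A1 was 45.3% on CPM, 29.1% on CQN values, 48.6% with joined exons and 35.8% to 38.1% with each replicate left out. The size of a ratio depends on the pseudocount where a gene is near 0.1 RPKM, as for SLC2A4, and is set by it for members with a few counts.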
